A study of Mus musculus with 16 samples.

Results

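The lactate dehydrogenase genes and the main genes of glycolysis were followed in aging mouse rods through 10 listed symbols: Ldha, Ldhb, Hk1, Hk2, Pfkp, Pkm, Aldoa, Aldoc, Gapdh and Eno1. Each symbol was found once in the deposited gene CPM table (counts scaled to a common library total), so the members are 10 of 45594 genes in that table. All 10 members passed the filter for testing, at least 5 CPM in at least 4 libraries, which kept 12177 genes in all. The study measured total RNA of rods sorted by green fluorescence from C57BL/6J mice carrying Nrlp-GFP, a reporter read from the promoter of Nrl, whose protein directs precursors to the rod fate. Mice were 3, 12, 18 or 24 months old (written 3M, 12M, 18M and 24M), each age has 4 libraries, and every library, the youngest included, comes from the reporter strain. The design text calls the libraries biological replicates. The sources used here state neither the number of mice behind a library nor their sex. A reporter strain lacking Nrl appears in the protocol, but none of the 16 libraries carries that label.

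Rods draw much of their energy and carbon from glucose. Hexokinases trap glucose as glucose 6-phosphate, phosphofructokinase commits it to glycolysis, and aldolase, Gapdh, enolase and pyruvate kinase carry the carbon on to pyruvate. Lactate dehydrogenase is a tetramer of A and B subunits, encoded by Ldha and Ldhb, that interconverts pyruvate and lactate. Photoreceptors turn much of their pyruvate into lactate even when oxygen is present (aerobic glycolysis), with Ldha and Hk2 as the isozymes usually tied to that state and Ldhb as the subunit of oxidative tissues such as the heart.

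Sorted cells were over 98% pure on resorting, per the labels' protocols. All 14 rod markers of a list (among them Gnat1 and Nrl) were above 5 CPM at every age, with a summed level of 35936 ± 1595 CPM (SD, n = 4) at 3M and 30611 ± 1700 CPM (SD, n = 4) at 24M. Markers of Müller glia, the supporting glia of the retina, were also present: their 16 genes summed to 229 to 380 CPM at 3M (379.9 at most) and to 314 to 443 CPM at 24M, and none was at 0. Other non-rod lists were present too. At 3M and 24M bipolar markers summed to 383 to 442 and 365 to 425 CPM, and astrocyte markers to 294 to 324 and 201 to 313 CPM. Amacrine, horizontal and ganglion markers together summed to 164 to 216 and 152 to 211 CPM, and cone markers to 152 to 221 and 175 to 206 CPM. In bulk samples, fewer cells of a type and less RNA per cell cannot be told apart. Libraries held 20579144 to 28791777 estimated counts. The authors' normalized table leaves out 3 libraries. Of all 16, 24M replicate 3 and 12M replicate 4 had the highest slopes of log2 level against GC content over all tested genes, and 18M replicate 3 had the lowest. By the slope against transcript length 18M replicate 3 was highest and 24M replicate 3 lowest, but 12M replicate 3, which that table keeps, was farther from the median than 12M replicate 4. Results are given with 16 libraries and with the other 13.

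Pyruvate kinase is the member for which one gene makes both isozymes. The Pkm gene (chromosome 9, GRCm38, plus strand, 59656368 to 59679375) carries a pair of mutually exclusive coding exons of 167 bases each, and a transcript holds either the M1 or the M2 exon. The exons are shown because they are what separates M1 from M2 transcripts here. Bases are 5′ to 3′ from the GENCODE M21 transcripts of GRCm38, and capitals mark the 64 positions at which the exons differ, so 103 of 167 positions (61.7%) are the same.
Pkm M1 exon, chr9:59675029-59675195: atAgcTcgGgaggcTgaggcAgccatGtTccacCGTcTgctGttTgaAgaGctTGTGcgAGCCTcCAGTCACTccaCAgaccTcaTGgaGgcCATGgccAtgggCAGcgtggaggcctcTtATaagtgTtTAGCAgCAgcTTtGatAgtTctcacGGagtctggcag
Pkm M2 exon, chr9:59675568-59675734: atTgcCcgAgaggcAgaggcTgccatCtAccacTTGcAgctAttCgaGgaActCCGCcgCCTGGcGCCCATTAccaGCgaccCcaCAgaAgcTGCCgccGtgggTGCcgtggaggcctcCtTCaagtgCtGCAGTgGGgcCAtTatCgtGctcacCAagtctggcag

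The lactate dehydrogenase genes are shown by the 150 bases before their RefSeq start, since they are the members whose levels parted with age. Capitals mark matches to the hypoxia response core, searched as ACGTG on both strands. The E-box, CACGTG, holds the core on both strands at once and so counts as 2 matches.
Ldha upstream, plus strand, GRCm38.p6 chr7:46845654-46845803: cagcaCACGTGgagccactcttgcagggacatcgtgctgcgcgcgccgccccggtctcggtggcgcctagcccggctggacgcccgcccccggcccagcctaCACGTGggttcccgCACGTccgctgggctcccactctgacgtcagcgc
Ldhb upstream, minus strand, GRCm38.p6 chr6:142507958-142508107: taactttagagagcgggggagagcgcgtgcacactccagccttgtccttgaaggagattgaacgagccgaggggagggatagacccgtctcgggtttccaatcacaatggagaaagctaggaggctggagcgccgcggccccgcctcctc

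The Ldha window holds 5 matches to ACGTG, 4 of them in 2 E-boxes, and the Ldhb window holds none. Over 250 upstream bases of RefSeq, 3 of the 10 members held ACGTG (Ldha, Hk2 with 2 matches and Aldoa with 1), against 16.6% of 32851 windows of that length. For Hk1 the nearest RefSeq start lay 2301 bases from the start of the most counted transcript, so its window is not directly upstream of that transcript. For Eno1 and Pkm the distance was 244 and 208 bases. CACGTG was in 1 member (Ldha) and in 6.0% of all windows. TAATCC, the core bound by the photoreceptor factor CRX, was in 1 member (Pfkp) and in 6.3% of all windows. These are matches of letters, not measured sites.

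Levels can be set side by side between genes only per length, so estimated counts were divided by transcript length and scaled to the same total in every library. On that scale the mean over 16 libraries was 441 ± 36.1 (SD) for Aldoa, 347 ± 34.2 for Eno1, 314 ± 23.7 for Ldha and 312 ± 31.2 for Pkm. Aldoa was above Eno1 in all 16 libraries and Eno1 above Ldha in 14, whereas Ldha was above Pkm in 7 of 16 and the order of those genes was not separated. Hk1 followed at 237 ± 28.4 and Gapdh at 227 ± 28.3, with Hk1 higher in 10 of 16 libraries. Pfkp at 113 ± 24.9 and Hk2 at 111 ± 16.1 also were not separated (Pfkp higher in 7 of 16). Aldoc at 45.5 ± 5.22 and Ldhb at 14.5 ± 3.30 were the lowest, each below the gene before it in all 16 libraries.

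With age Ldhb rose and the ratio of Ldha to Ldhb fell. The Aldoa to Aldoc and Eno1 to Eno2 ratios, given below, also differed among ages. Ldhb, the B subunit (chromosome 6, minus strand, 142490249 to 142507957 on GRCm38), had 20.3, 15.96, 19.3 and 19.9 CPM in the 3M libraries and 21.0, 21.8, 21.9 and 35.7 CPM at 12M. It had 29.3, 29.2, 22.7 and 22.8 CPM at 18M, and 26.0, 31.6, 36.3 and 27.1 CPM at 24M. Every library of the later ages was above every 3M library, while neighbouring later ages overlapped. Mean levels in age order were 18.9 ± 2.002, 25.1 ± 7.07, 26.0 ± 3.74 and 30.2 ± 4.69 CPM (SD, n = 4).

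Ldhb rose at 24M against 3M by 0.68 on the log2 scale (SE 0.17). The adjusted p was 0.0297 by edgeR's quasi-likelihood test with Benjamini-Hochberg adjustment over all genes. It was the 1 member of 10 past the threshold of 0.05 in that comparison, where 4.25% of all tested genes passed and 2.65% passed as higher. The difference from the same 3M libraries was 0.41 (SE 0.17, edgeR adjusted p = 0.436) at 12M and 0.46 (SE 0.17, edgeR adjusted p = 0.228) at 18M, so neither passed. A linear term for age also passed for Ldhb alone among the members, at 0.031 log2 units per month (SE 0.0075, edgeR adjusted p = 0.0217), against 4.8% of all genes (2.84% higher). That linear call was lost in 3 of the 16 fits that left out 1 library (up to 0.0895, without 3M replicate 2). The call at 24M was lost when any 1 of the 4 libraries of 3M, or 24M replicate 2 or 3, was left out (edgeR adjusted p = 0.0582 to 0.118), with a log2 fold change of 0.58 to 0.74 over all 16 such fits. It was kept with the other 13 libraries (0.58, SE 0.11, edgeR adjusted p = 0.0019).

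Ldha, the A subunit (chromosome 7, plus strand, 46841475 to 46855627), was far more abundant and did not pass in any edgeR comparison with all 16 libraries and no covariate. It had 564, 654, 603 and 636 CPM at 3M and 464, 471, 463 and 656 CPM at 12M. At 18M it had 567, 608, 387 and 551 CPM, and at 24M 408, 523, 697 and 459.6 CPM. At 12M and at 24M 3 of 4 libraries were below every 3M library and the other one was above them all, so the ages overlapped. The log2 fold change of Ldha at 24M against 3M was -0.24 with an SE of 0.17 (edgeR adjusted p = 0.63). On the per-length scale its means were close, at 321 ± 25.7, 304 ± 29.3, 312 ± 29.1 and 318 ± 15.3 (SD, n = 4) from 3M to 24M.

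**Figure D1:**
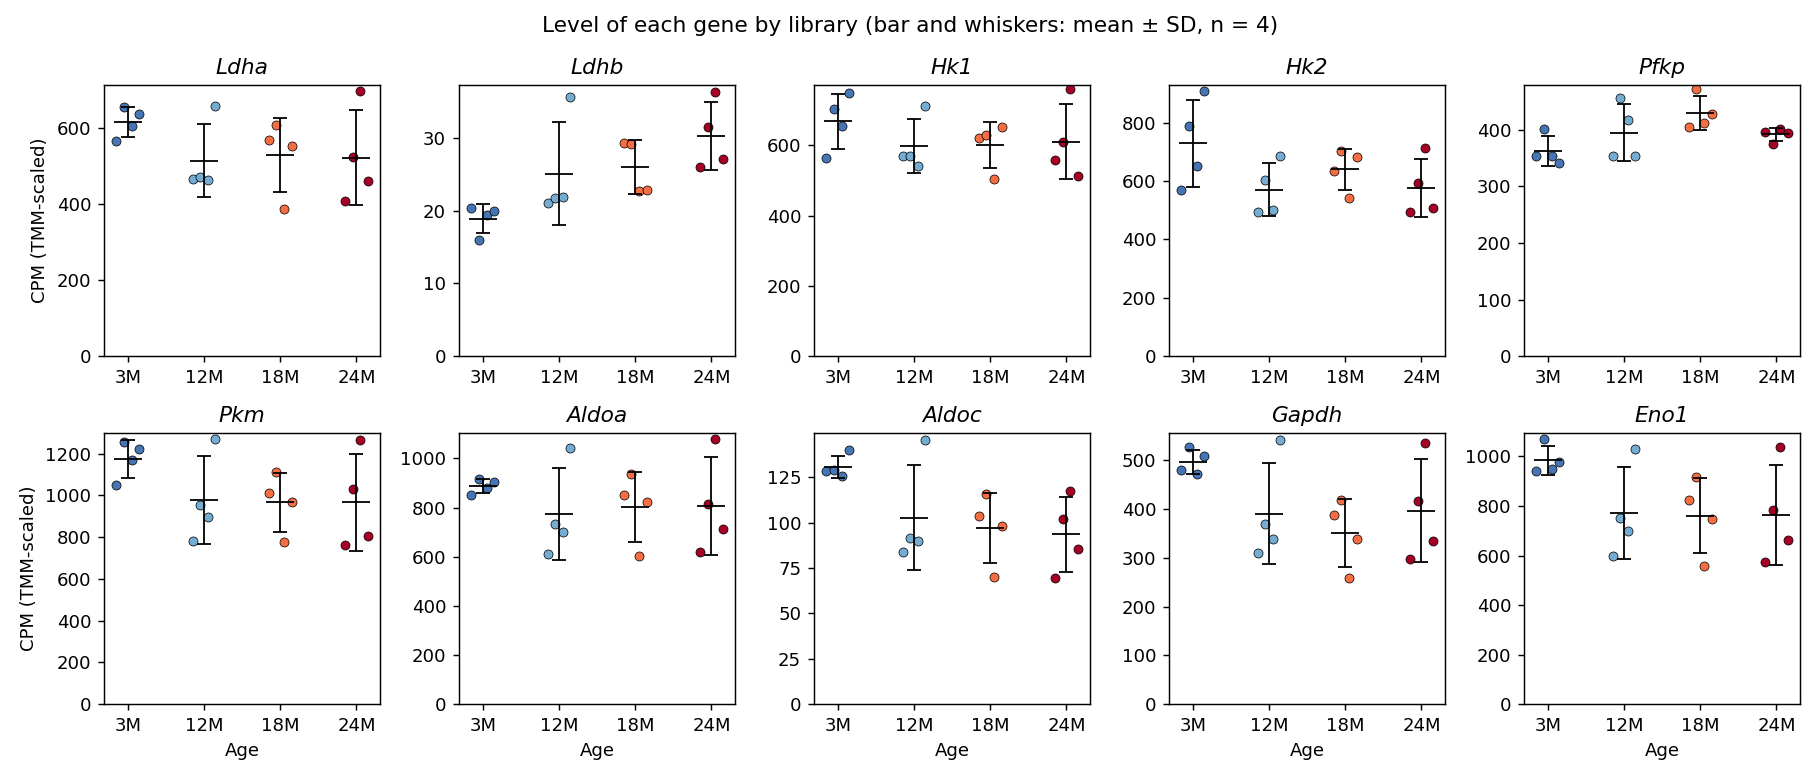
TMM-scaled CPM (y axis, linear from 0, own range per gene) of the 10 members at the 4 ages (x axis), 1 point per library, with a bar and whiskers for the mean ± SD (n = 4). In the Ldhb panel every 12M, 18M and 24M point lies above the 3M points (15.9557 to 20.3479 CPM), and in most other panels the highest points at 12M and 24M are 12M replicate 4 and 24M replicate 3.

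The ratio of Ldha to Ldhb within a library does not depend on the scaling of that library. It was 27.1, 39.7, 30.4 and 31.2 at 3M and 21.6, 21.2, 20.7 and 18.2 at 12M. At 18M it was 19.1, 20.5, 16.7 and 23.6, and at 24M 15.4, 16.3, 19.0 and 16.7. No later library reached the lowest 3M ratio. The ratio differed among ages by an exact permutation test over all 2627625 partitions of the libraries (p = 0.0001595, 0.000558 after Benjamini-Hochberg adjustment over 7 ratios). Against 3M the 12M ratio differed by -0.64 on the log2 scale (SE 0.13), the 18M ratio by -0.68 (SE 0.16) and the 24M ratio by -0.92 (SE 0.13). Each of these comparisons uses the same 3M libraries and had an exact two-sided permutation p = 0.0286, the smallest that 4 libraries against 4 allow, or 0.0833 adjusted over the 35 pairs of ages tested for the 7 ratios. As a share per length, Ldhb made up 3.02% ± 0.445 of Ldha plus Ldhb at 3M. In age order the later shares were 4.59% ± 0.423, 4.72% ± 0.608 and 5.41% ± 0.418 (SD, n = 4).

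Ldhb moved over libraries with the Müller glia markers, and relations to the other marker lists were not tested. Over 16 libraries its log2 CPM had Pearson's r = 0.865 and Spearman's rho = 0.821 with the log2 sum of those markers (permutation p = 2e-05 and 0.00015, adjusted over 30 relations 7.5e-05 and 0.000375). Dropping 3M replicate 2 and 12M replicate 4, whose sums lie farthest from the median, left r at 0.799, and centring each age on its mean gave 0.898. Ages have 4 libraries each, too few for a value within 1 age. Glul, the glutamine synthetase of glia, was at 85.1 ± 22.5 CPM at 3M and 115 ± 24.4 CPM at 24M (SD, n = 4). Car2, a carbonic anhydrase, was at 74.8 ± 4.69 and 106 ± 6.32 CPM. Not every marker had a higher mean at 24M: Kcnj10 was at 6.00 ± 0.971 and 5.40 ± 0.559 CPM, and Dbi at 4.19 ± 0.897 and 4.18 ± 0.761 CPM. With the marker sum as a covariate, an alternative chosen after seeing the data, Ldhb at 24M against 3M was 0.41 (SE 0.098, edgeR adjusted p = 0.0123), and at 12M and 18M it was 0.20 and 0.27. Of the 3M libraries only replicate 1 had a sum within the 24M range, so that fit separates age from the sum only in part. Ldha had r = 0.313 with the same sum (permutation p = 0.239), and 0.626 after centring each age. Centred in that way other members also followed the sum, among them Aldoc (0.803), Gapdh (0.743) and Aldoa (0.71). Among the protein-coding genes tested, Pygm (0.947), a glycogen phosphorylase, was most like Ldhb over the 16 libraries by Pearson's r of log2 CPM. Pifo (0.944) and Efnb1 (0.939), an ephrin, followed.

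**Figure D2:**
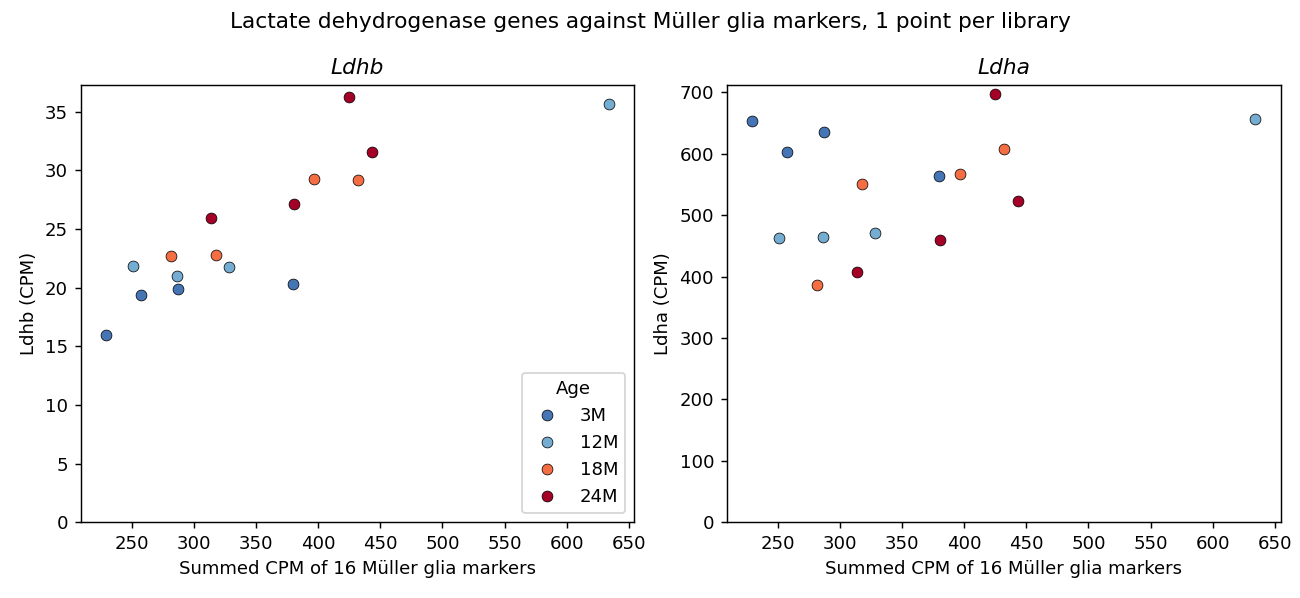
CPM of Ldhb (left) and Ldha (right) on linear y axes against the summed CPM of 16 Müller glia markers (x axis), 1 point per library, coloured by age. Ldhb is higher where the sum is higher, and Ldha follows the sum less closely. Of the 3M points only replicate 1 (sum 379.9 CPM, Ldhb 20.3 CPM) lies within the 24M range of sums, 314 to 443 CPM. It is below 24M replicate 4 (sum 380.4 CPM, Ldhb 27.1 CPM), while the other 3M sums are below every 24M sum. The point at the far right is 12M replicate 4 (634 CPM).

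At the head of the pathway, Hk1, a hexokinase of most tissues, and Hk2, the isozyme of rapidly glycolytic cells, did not pass in any edgeR comparison with all 16 libraries and no covariate. Hk2 (chromosome 6, 82725025 to 82774454) had 570.0, 789, 651 and 907 CPM at 3M and 495, 592, 712 and 506 CPM at 24M, with overlap. Its log2 fold change at 24M was -0.34 (SE 0.16, edgeR adjusted p = 0.354), and that of Hk1 was -0.13 (SE 0.13, edgeR adjusted p = 0.775). Hk1 (chromosome 10, 62268855 to 62379908) averaged 668 ± 78.7 CPM at 3M and 611 ± 107 CPM at 24M (SD, n = 4). The mean Hk2 to Hk1 ratio of CPM was 1.08 ± 0.103 in 3M and 1.06 ± 0.0406 in 18M libraries, and 0.955 ± 0.0809 in 12M and 0.944 ± 0.0442 in 24M libraries (SD, n = 4). All 4 ratios at 24M (0.8851 to 0.9845) were below all at 3M (0.9933 to 1.213) and at 18M (1.021 to 1.116). Among ages the exact permutation test gave p = 0.0308, or 0.0539 over the 7 ratios. Hk1 overlaps the antisense gene Hk1os and Hk2 the antisense gene Gm17034. The kit keeps strand, but the strand setting of the counting is not stated.

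Pfkp, the platelet form of phosphofructokinase and the main form by level here, was one of the 2 members (with Ldhb) whose log2 fold changes against 3M were above 0 at every later age. It had 354, 402, 354 and 340.4 CPM at 3M, 405, 472, 411 and 428 CPM at 18M, and 396, 375, 401 and 395 CPM at 24M. The 18M libraries were above all 3M and all 24M libraries, but the 18M difference of 0.24 (SE 0.092) did not pass (edgeR adjusted p = 0.252). The liver form Pfkl averaged 193 ± 21.1 CPM at 3M and 175 ± 51.0 CPM at 24M, and the muscle form Pfkm stayed near 10.5 ± 1.23 and 11.1 ± 1.76 CPM (SD, n = 4). The Pfkp to Pfkl ratio of CPM averaged, in age order, 1.88 ± 0.163, 2.49 ± 0.485, 2.56 ± 0.48 and 2.35 ± 0.567 (exact permutation p = 0.194, 0.227 over the 7 ratios). All 18M ratios (2.233 to 3.261) were above all 3M ratios (1.744 to 2.12), with an exact permutation p = 0.0286 for that pair of ages, or 0.0833 over the 35 pairs. Among ages the ratio passed with the 13 libraries (exact permutation p = 0.00535 over the 7 ratios). Over 16 libraries its r with the transcript-length slope, defined below, was 0.912. That r was 0.633 for Pfkp to Pfkm, -0.578 for Eno1 to Eno2 and -0.501 for Pkm M2 to M1. It was -0.386 for Ldha to Ldhb, 0.27 for Aldoa to Aldoc and -0.253 for Hk2 to Hk1. The protein-coding gene most like Pfkp over the libraries was Fhad1 (r = 0.874), followed by Pfkfb3 (r = 0.83), which makes the activator of phosphofructokinase.

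The aldolases split fructose 1,6-bisphosphate, Aldoa being the form of muscle and most tissues and Aldoc the form of brain and retina. Aldoc (chromosome 11, 78322968 to 78327781) had 128, 129, 126 and 139.7 CPM at 3M and 83.5, 91.6, 89.8 and 145.5 CPM at 12M. It had 103, 116, 70.2 and 98.0 CPM at 18M and 69.5, 102, 117 and 85.3 CPM at 24M. All 18M and 24M libraries were below all 3M libraries. The log2 fold changes against the shared 3M libraries were -0.35, -0.43 and -0.48 at 12M, 18M and 24M, and the last (SE 0.19) did not pass with 16 libraries (edgeR adjusted p = 0.226). With the 13 libraries it was -0.61 (SE 0.10, edgeR adjusted p = 0.0011). Aldoa averaged 888 ± 28.8 CPM at 3M and 806 ± 199 CPM at 24M, which is -0.14 on the log2 scale (SE 0.18, edgeR adjusted p = 0.841).

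The Aldoa to Aldoc ratio rose with age. It was 6.61, 7.09, 6.98 and 6.45 at 3M and 7.30, 7.95, 7.79 and 7.15 at 12M. The 18M libraries had 8.21, 8.05, 8.52 and 8.37 and the 24M libraries 8.85, 7.95, 9.155 and 8.32. Ratios at 12M were all above those at 3M and those at 18M all above those at 12M, while 24M overlapped 18M. The log2 difference of 24M from 3M was 0.34 (SE 0.056), and the exact permutation test among ages gave p = 3.387e-05, or 0.000237 over the 7 ratios. The Aldoa symbol covers more ground in the authors' gene table (126795234 to 126809108 on chromosome 7) than in GENCODE M21 (126795234 to 126800751). With the authors' gene CPM the ratio gave the same call, at 0.35 and an exact permutation p = 0.000774 over the ratios with a value.

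**Figure D3:**
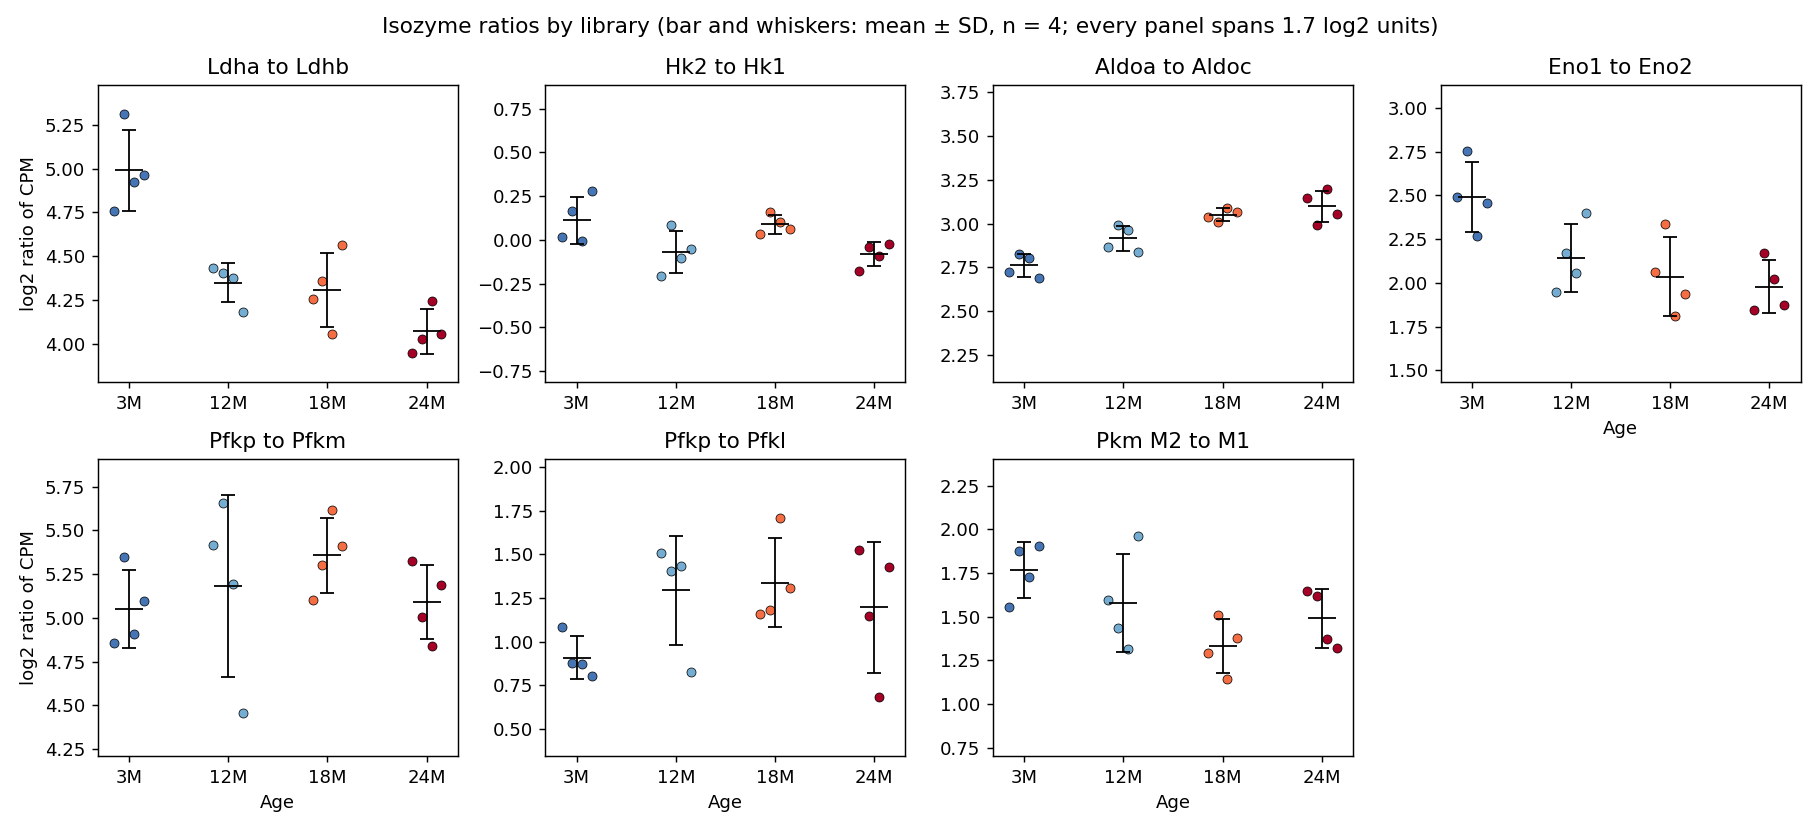
Log2 ratio of CPM for 7 isozyme pairs (y axis; every panel spans the same number of log2 units) at the 4 ages (x axis), 1 point per library, with a bar and whiskers for the mean ± SD (n = 4). The Ldha to Ldhb points of the later ages all lie below those of 3M, the Aldoa to Aldoc points of the later ages all lie above, and in the Pfkp to Pfkl panel the 18M points lie above the 3M points while the other ages overlap.

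Gapdh and Eno1 gave lower mean CPM after 3M, and neither passed in any edgeR comparison with all 16 libraries and no covariate. Gapdh, which oxidizes glyceraldehyde 3-phosphate, had 481, 527, 472 and 509 CPM at 3M, 388, 418, 259.7 and 339 CPM at 18M, and 299, 416, 536 and 334 CPM at 24M. All 18M libraries were below all 3M libraries, and at 24M 1 library (replicate 3) was above them. The differences were -0.50 (SE 0.20, edgeR adjusted p = 0.284) at 18M and -0.33 (SE 0.20, edgeR adjusted p = 0.52) at 24M. Its level is uncertain, because 95 other annotated genes share at least 95% identity with it over at least 300 bases, and their counts were 7.7% to 24% of the sum of Gapdh and those copies. For the other members such copies held at most 0.26%.

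Eno1, the enolase of most tissues (chromosome 4, 150236721 to 150248879), had 939, 1069, 951 and 977 CPM at 3M, 824, 916, 557 and 747 CPM at 18M, and 572, 785, 1039 and 661 CPM at 24M. Its log2 fold changes were -0.35, -0.37 and -0.36 at the 3 later ages (SE 0.19 each, edgeR adjusted p = 0.641, 0.474 and 0.444). Eno2, the neuronal enolase, averaged 175 ± 17.0 CPM at 3M and 192 ± 42.9 CPM at 24M (SD, n = 4). The Eno1 to Eno2 ratio averaged, in age order, 5.67 ± 0.803, 4.45 ± 0.614, 4.14 ± 0.663 and 3.96 ± 0.421 (SD, n = 4). All 24M ratios (3.593 to 4.505) were below all 3M ratios (4.81 to 6.746), and the exact permutation test among ages gave p = 0.0144, or 0.0335 over the 7 ratios. That call was lost in 8 of the 16 analyses that left out 1 library, with values up to 0.106.

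Pkm, pyruvate kinase, had 1049.6, 1257, 1169 and 1220.1 CPM at 3M and 764, 1029, 1267 and 806 CPM at 24M, which is -0.28 on the log2 scale (SE 0.17, edgeR adjusted p = 0.531). Most Pkm transcripts held the M2 exon at every age. Estimated counts for the M2 transcript were 21493 to 26209 per library at 3M and 14402 to 23259 at 24M, against 5936 to 7289 and 4597 to 8978 for the M1 transcript. Per length, the M1 share averaged, in age order, 25.9% ± 2.16, 28.6% ± 3.88, 32.1% ± 2.33 and 29.8% ± 2.42 (SD, n = 4). All 18M shares were above all 3M shares (24.089 to 28.7807%), but the M2 to M1 ratio did not pass among ages (exact permutation p = 0.0579, 0.0811 over the 7 ratios). The transcripts also differ at their ends (2041 and 2432 bases), so the estimate does not rest on the exons alone.

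Over the whole list, 0 of 10 members passed at 12M and at 18M against 3M and 1 passed at 24M, where 1.39%, 2.64% and 4.25% of all genes passed with edgeR. At 12M 2 members, at 18M 4 and at 24M 3 had an unadjusted edgeR p under 0.05, as did 9.15%, 12.4% and 14% of all genes. DESeq2 and limma voom also called 0, 0 and 1. Of all genes DESeq2 called 2.57%, 4.34% and 6.34% at those ages, and limma voom 1.41%, 2.62% and 4.39%. No member passed at 18M against 12M (0.00821% of all genes passed) or at 24M against 18M (0% of all genes), or in the F-test for any age (2.82% of all genes). In each comparison with 3M, 8 of 10 members had a log2 fold change below 0, with medians of -0.26, -0.20 and -0.26 at 12M, 18M and 24M. Over all genes 50.6%, 48.4% and 47.3% were below 0, and medians were 0.0107 or closer to 0. Libraries did not overlap for 1 member at 12M, 5 at 18M and 2 at 24M against 3M, with 5.09%, 13.7% and 10.6% of all genes. Between later ages this held for 0 members at 18M against 12M and for Pfkp, lower, at 24M against 18M, with 1.59% and 4.11% of all genes.

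How many members passed differed with and without the 3 libraries that the authors' normalized table leaves out. With the other 13 libraries 8 members passed at 24M against 3M: Ldhb was higher, and Ldha (-0.41), Hk2 (-0.46), Pkm (-0.44), Aldoa (-0.31), Aldoc (-0.61), Gapdh (-0.51) and Eno1 (-0.55) were lower, while 23.6% of all genes passed in that edgeR fit (12.2% higher and 11.4% lower). At 12M 8 members were lower, with 38.4% of all genes passing (18.8% lower), and at 18M 1 (Ldhb) was higher, with 5.85% (3.68% higher). In the authors' deposited table for those libraries, 8 members have an adjusted p under 0.05 for any age, from 0.00267 for Ldhb to 0.0332 for Hk2, and Hk1 (0.101) and Pfkp (0.122) do not.

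**Figure D4:**
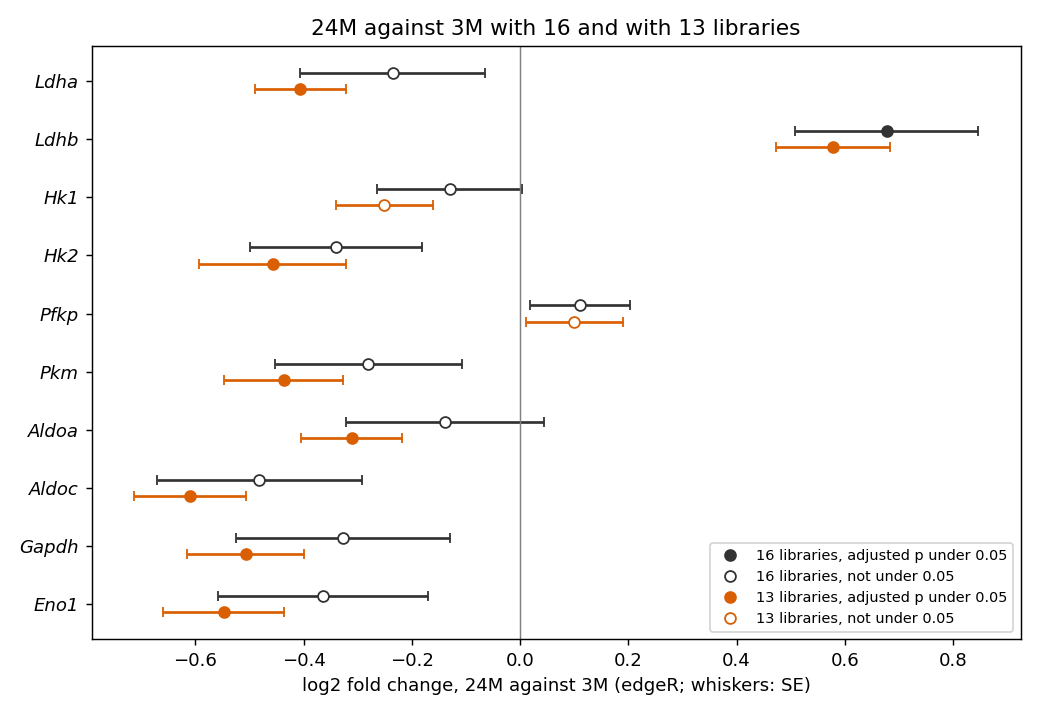
Log2 fold change of each member at 24M against 3M (x axis; points with whiskers of 1 SE) from edgeR with 16 and with 13 libraries, filled where the adjusted p is under 0.05. With 16 libraries the Ldhb point (0.68) is the filled one, and with 13 libraries 8 points are filled, 7 of them below 0.

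For 8 members, all but Ldhb and Pfkp, the level in a library followed that library's balance between long and short transcripts over the 16 libraries, and after centring each age Ldhb followed it too. That balance is the slope, over all tested genes, of log2 level against transcript length. Over 16 libraries their r with it was -0.947 to -0.765 and their rho -0.95 to -0.797 (permutation p adjusted over 30 relations at most 0.00132). Dropping 12M replicate 3 and 18M replicate 3, whose slopes lie farthest from the median, gave r of -0.95 to -0.745, and centring each age on its mean -0.952 to -0.739. For Ldhb r was -0.288 over the 16 libraries and -0.802 after centring, within the range of those 8. For Pfkp r was 0.242 and 0.128. The same 8 members also followed the GC slope, with r of 0.697 to 0.887 and rho of 0.759 to 0.909 (adjusted permutation p at most 0.00443). After centring each age their r was 0.802 to 0.908. For Ldhb r with the GC slope was 0.426 over the 16 libraries and 0.785 after centring. Without 12M replicate 4 and 24M replicate 3 it was -0.149. Many other genes moved with the 8 members: protein-coding genes with r over 0.8 numbered from 180 for Hk2 to 1299 for Ldha. With the length slope as a covariate, 2 members passed at 24M against 3M, with 11.4% of all genes. They were Ldhb (0.80, SE 0.11, edgeR adjusted p = 0.000101) and Aldoc (-0.33, SE 0.091, edgeR adjusted p = 0.0284). Ldha was then -0.10 and Aldoa -0.0036. With the GC slope in its place 7 members passed and 20.3% of all genes, and with the Müller glia sum 5 members and 14.6%. The part of RNA quality in these differences was not tested.

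On the per-length scale the lower mean levels after 3M held for some members and not for others. From 3M to 24M the mean went from 52.2 ± 2.05 to 41.7 ± 3.42 for Aldoc, with no overlap (SD, n = 4). It went from 373 ± 26.2 to 331 ± 23.2 for Eno1 and from 259 ± 18.1 to 232 ± 14.3 for Gapdh, and the 24M libraries of both overlapped those of 3M. For Ldhb the mean went from 9.94 ± 1.05 to 18.1 ± 0.934, with no overlap. Single genes were not tested on this scale. Aldoa (442 ± 27.8 and 449 ± 24.8) and Hk1 (232 ± 27.6 and 241 ± 21.2) had slightly higher means at 24M, so the direction of both depends on the scaling.

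Beyond the members, 59 of 86 further genes of the pathway and its branches were tested, and 1 was called at 18M and 1 at 24M against 3M, where 2.64% and 4.25% of all genes were called. Gbe1, the glycogen branching enzyme, had 17.4, 17.4, 14.3 and 15.04 CPM at 3M and 21.5, 22.2, 22.6 and 21.9 CPM at 18M, a rise of 0.46 (SE 0.11, edgeR adjusted p = 0.0407). Pdk3, a kinase that inhibits pyruvate dehydrogenase, had 31.6, 31.5, 33.0 and 30.1 CPM at 3M and 36.9, 38.1, 36.7 and 37.6 CPM at 24M. All 4 libraries of the later age were above all 3M libraries for each gene, as for 7.22% of all genes at 18M and 5.28% at 24M. Pdk3 rose by 0.24 (SE 0.064, edgeR adjusted p = 0.0447) and also passed for the linear term (edgeR adjusted p = 0.0328). Leaving out 1 library ended the call of Gbe1 in 12 of 16 cases (up to 0.151, without 3M replicate 3) and that of Pdk3 in 13 of 16 (up to 0.142, without 3M replicate 4). The linear call of Pdk3 was lost in 9 of 16 (up to 0.11, without 3M replicate 4). At 24M against 3M 36 of the 59 genes were below 0, with a median of -0.067, against 47.3% of all genes.

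None of the other named steps passed at 24M against 3M. Slc2a1, the glucose transporter, was at -0.12 and Gpi1, the isomerase after hexokinase, at 0.16. In lower glycolysis Tpi1 was at -0.39, Pgk1 at -0.43 and Pgam1 at -0.34 (edgeR adjusted p = 0.505, 0.323 and 0.482). The lactate transporter Slc16a1 was at 0.076 and its partner Bsg at 0.056. Pdk1 was at -0.53 (SE 0.21, edgeR adjusted p = 0.222), a log2 fold change opposite in sign to that of Pdk3, and Hif1a, the hypoxia-inducible factor, at -0.064. In lower glycolysis 5 of 7 tested genes were below 0 and in the pyruvate dehydrogenase list 8 of 10, with medians of -0.14 and -0.15. In glucose transport and entry it was 2 of 3, in lactate and pyruvate handling 5 of 8 and among regulators 6 of 10. For phosphofructokinase and its regulators it was 2 of 6 (median 0.051), and for the glycogen and pentose phosphate branches 8 of 15 (median -0.0023). Over all genes 47.3% were below 0.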

How the data were processed

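Each library started from 4 ng of rod RNA and a strand-keeping total RNA kit, per the labels' protocols. Build GRCm38.p4, limma 3.32.2, edgeR 3.13.9 and kallisto 0.42.5 stand without a role in the submitters' processing notes. The authors deposited estimated counts per transcript for 16 libraries, a gene table of CPM signal, a normalized CPM signal of 11826 genes in 13 libraries, and, per the file headers, a comparison table that holds log2 differences from 3M, an F score, and raw and adjusted p-values. The sources used here do not give the annotation or strand setting of the counting.

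Estimated counts of 111896 of 113468 transcripts were matched to GENCODE M21 (GRCm38), summed to 45038 genes and rounded; unmatched transcripts held 0.73% to 1.08% of a library. Depth was 20579144 to 28791777 estimated counts, and no pair of libraries agreed within sampling noise (lowest chi-square per degree of freedom 8.99). edgeR 4.0.16 (R 4.3.3) fitted all 16 libraries with TMM factors and 1 mean for each age, on the 12177 genes that reached 5 CPM in 4 or more libraries (common biological coefficient of variation 0.169). Called means a Benjamini-Hochberg adjusted p under 0.05 over all genes tested. The scripts were tested on simulated counts. Ratios used log2 of CPM + 0.5 and exact two-sided permutation tests (numpy 2.4.6, scipy 1.17.1). Relations to library measures used 100000 permutations, whose smallest p is 1e-05. Near-identical copies were sought with BLAST 2.17.0, and upstream sequences come from RefSeq (GRCm38.p6), the window nearest the leading transcript where a gene has several.

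Named genes are the 10 members, Eno2, Pfkm and Pfkl, and pathway genes past the threshold. Slc2a1, Pgk1, Tpi1, Gpi1, Pgam1, Slc16a1, Bsg, Hif1a and Pdk1 were named whatever their values. The Müller glia markers Glul, Car2, Kcnj10 and Dbi were chosen after their values were seen. The members and lists were chosen with earlier results of these data known. Alternatives were DESeq2 1.42.0, limma voom (limma 3.58.1), DESeq2 size factors, other filters, the authors' gene CPM, a replicate block, leaving out each library, the 13 libraries, length and GC slopes as covariates and, chosen after seeing the data, the Müller glia sum. One gene of the rod marker list is not reported here.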

Additional observations from a re-analysis of the deposited data

Results flagged for a closer look

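In 4 of 68 groups of 4 libraries checked, 1 library lay far from the other libraries of its age, and chance alone gives about 1 in 20. All 4 are 12M replicate 4. It had 656.3 CPM of Ldha where the other 12M libraries had 463 to 471.3. It had 35.67 CPM of Ldhb against 21.04 to 21.87, and 145.5 CPM of Aldoc against 83.55 to 91.6. Its log2 ratio of Pfkp to Pfkl was 0.8279 against 1.405 to 1.506. The same library had the highest Müller glia sum of all 16 (634.3 CPM). Ldha and Aldoc were thus above every 3M library in it and below every 3M library in the other 12M libraries, while Ldhb was above every 3M library in all 4.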

How the results depend on the processing

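The calls of members depended on the libraries and covariates used. With the transcript-length slope as a covariate 1, 2 and 2 members passed at 12M, 18M and 24M against 3M, 1 for any age and 2 for linear age, beside 2.05%, 5.44%, 11.4%, 7.23% and 9.59% of all genes. With the GC slope as a covariate these were 1, 1, 7, 2 and 5 (4.93%, 9.07%, 20.3%, 14.5% and 18.3%), and with the Müller glia sum, chosen after seeing the data, 2, 3, 5, 2 and 4 (6.63%, 12.1%, 14.6%, 8.49% and 13%). With the 13 libraries they were 8, 1, 8, 8 and 3 (38.4%, 5.85%, 23.6%, 29% and 8.57%). DESeq2 called 1 for any age (5.46%). Leaving out 1 library gave 0 to 1 at 18M, 0 to 1 at 24M, 0 to 1 for any age and 0 to 2 for linear age. The share of all genes called in those fits was not computed. The cause of these differences between settings was not tested. With the length slope, Hk1 at 12M (0.01265), Aldoa at 12M (0.04538) and Aldoa at 18M (0.000408) turned above 0.

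Same-numbered libraries did not deviate together (r of -0.744 to 0.726, 4 of 16 libraries closest to their own number), so the numbers are not taken as pairs. With the replicate block 0 members passed at 24M (Ldhb 0.68, edgeR adjusted p = 0.0696; 3.65% of all genes passed), Pdk3 passed neither at 24M nor for linear age (edgeR adjusted p = 0.104 and 0.0741), and Hk2 to Hk1 passed (adjusted exact permutation p = 0.01468). Pfkp to Pfkl passed with the 13 libraries (0.00535). Leaving out 1 library gave adjusted values of 0.02181 to 0.1057 for Hk2 to Hk1, 0.01283 to 0.1057 for Eno1 to Eno2, 0.108 to 0.8124 for Pfkp to Pfkm (direction turned in 3) and 0.03016 to 0.1861 for Pkm M2 to M1. Ldha to Ldhb and Aldoa to Aldoc kept direction and call in every alternative run for the ratios. Those runs did not include the length slope, the GC slope or the Müller glia sum as covariates. With 4 libraries an age, pairs of ages cannot pass adjustment over 35 tests unless many do.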
